A study of Mus musculus with 7 samples.

Results

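The cytosolic ribosomal protein genes encode the proteins of the ribosome that works outside the mitochondria. They were taken from the deposited expression table as the protein-coding genes whose symbol is Rpl or Rps followed by a number, with Rplp0, Rplp1, Rplp2 and Rpsa added. The kinases named Rps6k, the nucleolar factor Rps19bp1 and every symbol that marks a pseudogene were left out. This gave 82 of the 25461 genes in the table, 50 named for the large subunit and 32 for the small subunit. They lie on 19 chromosomes, with 7 on chromosome 17 and 4 on the X chromosome. Genes of ribosomal proteins with other symbols, such as Fau, whose product is made as a fusion to a ubiquitin-like protein, were not counted.

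RNA-seq had been made from whole mouse embryos at embryonic day 11.5, 3 KO and 4 WT. The KO embryos lacked SLMAP3, the longest form of the tail-anchored sarcolemma membrane-associated protein, through a deleted exon 3 of Slmap. That allele came from a loxP-flanked exon removed with a CMV-driven cre, after which the deletion was bred on without cre. WT embryos carried the intact gene, and both genotypes were on the B6C3F1 background, a cross of C57BL/6 and C3H mice. Each library came from 1 embryo without its tail, so each value averages all tissues of the body. The shorter SLMAP forms remain in the KO embryos, and a value per gene does not separate the forms. The labels do not say whether embryos of a genotype were littermates, and the p-values below measure the spread between these embryos. The 7 embryos are named here by the codes in the labels, whose first part (KOAC8, KOAC9 or KOAC10) is not explained there.

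Each ribosome carries a single copy of nearly every one of these proteins, and their genes are expressed at high levels in growing tissue. Their mRNAs start with a run of pyrimidines, the terminal oligopyrimidine tract, through which mTOR signalling controls their translation together. Most of the genes also have many processed pseudogenes, intronless copies of the mRNA inserted elsewhere in the genome, and these are close enough in sequence to compete for short reads.

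Slmap was first checked as the targeted gene. It was at 17.4 ± 1.92 FPKM in KO (SD, n = 3) and 26.7 ± 4.04 FPKM in WT embryos (SD, n = 4), where FPKM counts fragments relative to the length of the transcript and the total of the library. The KO values all lay under the WT range (log2 fold change -0.59, adjusted p = 0.278 from limma). Relative depth, read from the steps between low values, was 1.06 to 1.13 times the typical embryo in KO embryos. In WT embryos it was 1.21 in KOAC9-1 and 0.807 to 0.890 in the others. Of the marker genes fixed for other tissues, those of skeletal muscle summed to 221 to 273 FPKM in KO and 370 to 495 FPKM in WT embryos, and those of primitive erythroid cells to 11052 to 15225 FPKM in KO and 15127 to 20460 FPKM in WT embryos. Those of heart summed to 383 to 503 FPKM in KO and 336 to 407 FPKM in WT embryos, and those of neural progenitors to 637 to 707 FPKM in KO and 580 to 657 FPKM in WT embryos. Liver genes summed to 30.9 FPKM in the KO embryo KOAC10-5 and to 38.4 and 44.5 FPKM in the WT embryos KOAC10-7 and KOAC10-2, but to between 477 and 853 FPKM in the other 4. Sums for neurons overlapped between the genotypes, and those for trophoblast stayed under 1 FPKM. The part of these tissues in the ribosomal protein values was not tested, and in whole embryos fewer cells of a type and less RNA per cell cannot be told apart.

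Of the 82 genes, 70 had a mean of at least 500 FPKM and 44 of at least 1000 FPKM. The level of each was compared between genotypes on the log2(FPKM + 1) scale with limma, fitted to all 16095 genes that averaged 1 FPKM or more and adjusted over all of them by the Benjamini-Hochberg method. Of the ribosomal protein genes 81 entered the fit, and Rpl39l was too low. A single one of them, Rps18, had an adjusted p under 0.05, where 6 of all genes tested did (0.0373%). Those 6 include Rps18 itself and Gm11361 and Gm10260, copies of it described below. The other 80 lay between a log2 fold change of -0.22 and 0.48, and 74 of them within 0.2 of no change. Their smallest adjusted p was 0.391. At an unadjusted p under 0.05 there was 1 gene higher in KO embryos, Rpl18, which is 1.25% of the 80 where 5.27% of all genes were higher, and none was lower where 6.19% of all genes were. Without the KO embryo KOAC10-5 there were 10 genes higher, 12.5% of the 80 where 7.81% of all genes were. Without KOAC10-8 there were 3 lower and none higher, 3.75% where 4.49% of all genes were lower, and without the WT embryo KOAC10-7 there was none. Rpl18 was not under that limit with the embryo series as a block (adjusted p = 0.571 from limma), where Rpl26 was the single gene (adjusted p = 0.569 from limma), nor without KOAC8-6, KOAC10-8, KOAC10-7 or KOAC10-2. The KO values lay wholly above the WT values for 2 genes, Rpl18 and Rps10, or 2.5% of the 80 where 5.61% of all genes did so. They lay wholly below for Rps18 and for the untested Rpl39l, where 5.98% of all tested genes did so.

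**Figure D1:**
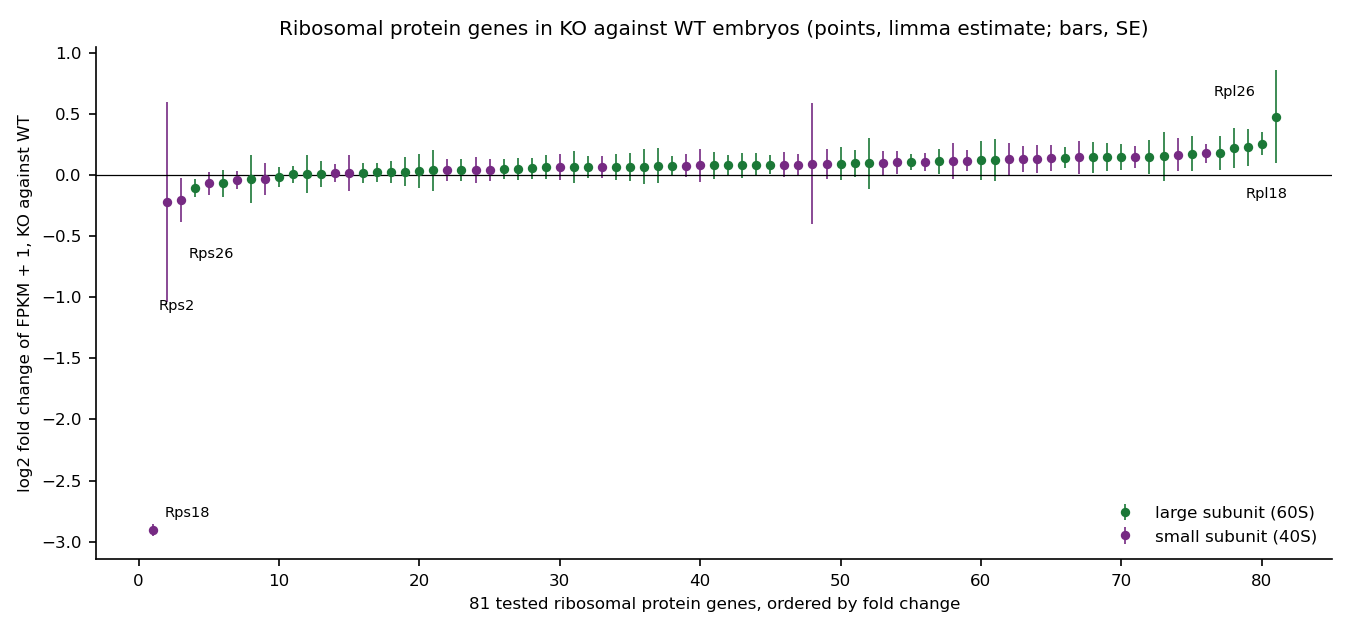
Log2 fold change of FPKM + 1 in KO against WT embryos for the 81 tested genes, ordered from the lowest to the highest, with large subunit genes in green and small subunit genes in purple. Points are limma estimates and bars their SE. Rps18 stands at -2.90, and the other 80 genes lie between -0.22 and 0.48.

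Rps18 encodes uS13, a protein of the head of the small subunit that touches the large subunit and the tRNA in the P site. It is ENSMUSG00000008668 in the table, and the GENCODE annotation places it at chr17:33951999-33956001 (minus strand, GRCm38). Its level was 155, 152 and 163 FPKM in the KO embryos KOAC8-6, KOAC10-5 and KOAC10-8. In the WT embryos KOAC8-1, KOAC10-7, KOAC9-1 and KOAC10-2 it was 1169, 1184, 1182 and 1184 FPKM. The genotypes were far apart and each was tight, with a KO mean of 13.3% of the WT mean. On the log2 scale it fell by 2.90 with an SE of 0.05 (adjusted p = 1.01e-06 from limma). An exact permutation test, two-sided, gave p = 0.0286, the smallest that 35 splits of 7 embryos allow.

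Against the rest of the family Rps18 changed place. In WT embryos it was between the 34th and the 37th most abundant of the 82 genes, and in KO embryos the 78th or 79th. It made up 1.28% to 1.31% of the summed FPKM of the family in WT embryos and 0.147% to 0.178% in KO embryos. In KO embryos this is near the single entries of Rpl12 at 157 FPKM and Rpl5 at 138 FPKM, which are among the 5 lowest in both genotypes. Summed with their near-copies, defined below, Rpl12 and Rpl5 were at 1399 and 1386 FPKM in KO embryos. The WT spread of Rps18 was also small, with an SD of 7.17 FPKM.

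Rps18 has near-copies in the table, defined here as other entries with at least 50% of their 50-base stretches present in the transcripts of the gene. Gm11361 at chr13:28257528-28258134 (plus strand) and Gm10260 at chr13:97760072-97760632 (minus strand) are both listed as protein coding. Rps18-ps3 at chr8:107262793-107263248 (minus strand) is listed as a processed pseudogene. Over the 456 coding bases of Rps18 before the stop codon, Gm11361 differs at 3 bases, Gm10260 at 4 and Rps18-ps3 at 3, with no insertion or deletion. The 60 coding bases from 127 to 186, counted from the start codon, are shown because they hold the most differences. They come from the GENCODE transcripts of the GRCm38 genome, and capitals mark the bases at which a copy departs from Rps18, and in Rps18 all of those positions.
Rps18: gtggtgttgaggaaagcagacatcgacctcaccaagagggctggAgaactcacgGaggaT
Gm11361: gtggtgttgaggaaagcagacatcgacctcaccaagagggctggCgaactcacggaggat
Gm10260: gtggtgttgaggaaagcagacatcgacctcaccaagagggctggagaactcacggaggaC
Rps18-ps3: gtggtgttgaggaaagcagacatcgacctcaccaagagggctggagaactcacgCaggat
A read over this stretch tells each copy from Rps18 by 1 base.

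The abundant copies moved the other way. Gm11361 was at 785, 672 and 842 FPKM in KO and at 201, 216, 197 and 220 FPKM in WT embryos. Gm10260 was at 1504, 1410 and 1712 FPKM in KO and at 691, 702, 646 and 723 FPKM in WT embryos. For both, the lowest KO value exceeded the highest WT value. Their log2 fold changes were 1.87 and 1.15 (adjusted p = 0.000502 and 0.00668 from limma). The pseudogene Rps18-ps3 went with Rps18, with 2.66, 5.19 and 1.17 FPKM in KO and 36.1, 26.3, 26.2 and 38.5 FPKM in WT embryos (adjusted p = 0.0539 from limma). Gm11361 and Gm10260 were also among the 5 genes whose level ran most opposite to Rps18 over the 7 embryos (Pearson r of -0.992 and -0.985). Nutf2-ps1 and Ulk3 were also among those 5, with r of -0.998 and -0.997, and the 5 most alike were Gm3650, H2-Q7, Rrbp1, Vps29 and Gm48348, with r between 0.972 and 0.993. No other ribosomal protein gene was among either. Since Rps18 separates the embryos by genotype into groups that do not overlap, these correlations are a description and carry no test.

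Adding the copies removed most of the difference. Rps18 and its 3 copies summed to 2447, 2239 and 2718 FPKM in KO and to 2098, 2129, 2051 and 2165.6 FPKM in WT embryos. The sums did not overlap, and their log2 fold change was 0.22 (limma on the table with copies summed, adjusted p = 0.402; exact permutation p = 0.0286, two-sided). The median log2 fold change of the other family members, with their copies summed as well, was 0.11. No ribosomal protein gene had an adjusted p under 0.05 in that table. FPKM divides by transcript length, so a sum over entries of different length only approximates a sum of reads.

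**Figure D2:**
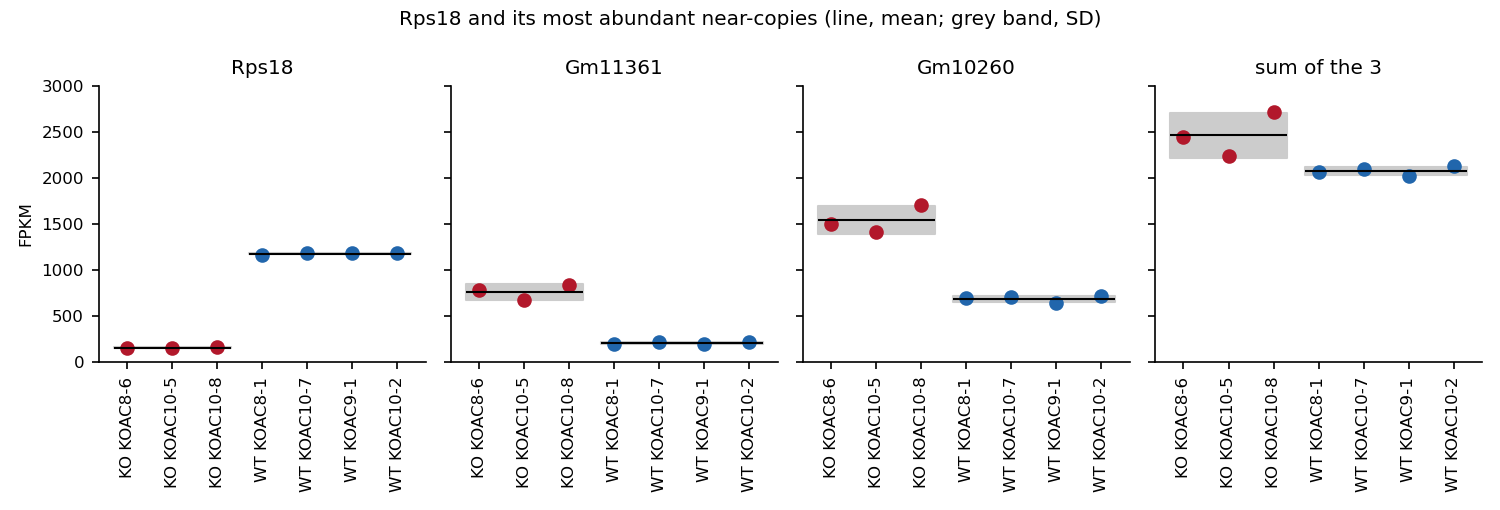
FPKM of Rps18, Gm11361 and Gm10260 and of their sum in each embryo, KO in red and WT in blue, with the group mean as a line and the SD as a grey band. Rps18 is near 155 FPKM in KO and near 1180 FPKM in WT embryos, while both copies are higher in KO embryos and the sums lie between 2025 and 2717 FPKM.

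No large subunit gene passed the adjusted test, and their sum overlapped between the genotypes. The 50 genes summed to 54601 ± 7443 FPKM in KO (SD, n = 3) and 50935 ± 1011 FPKM in WT embryos (SD, n = 4). Among its 49 tested genes the median log2 fold change was 0.08, with 45 positive and 4 negative. The largest value was that of Rpl26, a protein near the exit of the peptide tunnel that also binds p53 mRNA. Rpl26 was at 524, 1021 and 1353 FPKM in KO and at 503, 549, 1089 and 573 FPKM in WT embryos (log2 fold change 0.48, adjusted p = 0.645 from limma). The fold change was 0.04 with its copies summed, 0.73 with the embryo series as a block or without KOAC9-1, 0.87 without KOAC8-6 and 0.18 without KOAC10-8. It took a low level near 500 FPKM or a high one above 1000 FPKM in embryos of both genotypes.

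Rpl18, a protein of the solvent side of the large subunit, was at 1345, 1233 and 1557 FPKM in KO and at 1179, 1112, 1208 and 1093 FPKM in WT embryos. The lowest KO value was just above the highest WT value. The difference was 0.26 on the log2 scale with an SE of 0.09 (adjusted p = 0.391 from limma). Rpl22l1, a paralog of Rpl22 that is used in early development, was at 374 ± 76.0 FPKM in KO (SD, n = 3) and 316 ± 39.7 FPKM in WT embryos (SD, n = 4). Rpl13a, also known for a role in silencing of inflammatory mRNAs, was at 2074 ± 124 FPKM (SD, n = 3) and 1805 ± 391 FPKM (SD, n = 4). Rpl7 was at 1895 ± 260 FPKM (SD, n = 3) and 1670 ± 213 FPKM (SD, n = 4). These 3 had log2 fold changes of 0.23, 0.22 and 0.18 with adjusted p of 0.579 to 0.631 from limma, and their KO and WT values overlapped.

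The stalk proteins, which recruit the translation factors that use GTP, showed no change past the test. Rplp0, their base, was at 1669 ± 178 FPKM in KO (SD, n = 3) and 1599 ± 40.2 FPKM in WT embryos (SD, n = 4). Rplp1 had a log2 fold change of -0.02 and Rplp2 of 0.13. Rpl5 and Rpl11, which with 5S rRNA hold back Mdm2 when ribosome assembly fails, had log2 fold changes of 0.01 and 0.07. Summed with their near-copies these were 0.20 and 0.12, and the KO and WT sums overlapped for both. Rpl38, whose loss in mice alters the translation of Hox mRNAs, was at 1344 ± 294 FPKM in KO (SD, n = 3) and 1318 ± 139 FPKM in WT embryos (SD, n = 4). Rpl41, a very short protein, was the most abundant of all 82 genes, at 2929 ± 135 FPKM in KO (SD, n = 3) and 2915 ± 297 FPKM in WT embryos (SD, n = 4). Rpl27 was the lowest tested large subunit gene by fold change, at 448 ± 29.8 FPKM in KO (SD, n = 3) and 482 ± 29.3 FPKM in WT embryos (SD, n = 4) (log2 fold change -0.10, adjusted p = 0.602 from limma).

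The small subunit without Rps18 behaved like the large one. Its 31 other genes summed to 41508 ± 5714 FPKM in KO (SD, n = 3) and 39064 ± 724 FPKM in WT embryos (SD, n = 4). The median log2 fold change was 0.09, with 26 positive and 5 negative, and none passed the adjusted test. Rps10, a protein of the small subunit head, was the gene whose KO values lay above the WT range here. It was at 1206, 1162 and 1356 FPKM in KO and at 1133, 1120, 1017 and 1109 FPKM in WT embryos (log2 fold change 0.18, adjusted p = 0.451 from limma). Its gap between the groups, from 1133 to 1162 FPKM, was smaller than the spread within either group.

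Other small subunit genes lay inside the same narrow band. Rps6, the substrate of S6 kinase downstream of mTOR, had a log2 fold change of 0.13, and so did Rps19, the gene most often mutated in Diamond-Blackfan anaemia. Rpsa, also described as a laminin receptor, had one of 0.12, and Rps27a, made as a fusion to ubiquitin, of 0.04. The most abundant small subunit genes were Rps15, Rps24 and Rps9, with WT means of 2250, 2140 and 2144 FPKM and log2 fold changes of 0.14, 0.09 and 0.04. At the other end lay Rps2, Rps26 and Rps27. Rps26 was at 697, 717 and 1102 FPKM in KO and at 1076, 953, 785 and 983 FPKM in WT embryos (log2 fold change -0.20, adjusted p = 0.686 from limma), and Rps27 had a log2 fold change of -0.07.

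Paralogs of the family differed in their share of the partner gene. Rpl22l1 stood at 51.3% ± 9.22 of the FPKM of Rpl22 in KO (SD, n = 3) and 48.4% ± 7.60 in WT embryos (SD, n = 4). Rps27l, known as a p53 target, stood at 52.0% ± 4.51 of Rps27 in KO (SD, n = 3) and 49.2% ± 4.76 in WT embryos (SD, n = 4). Against Rps27 summed with its near-copies, a comparison chosen after seeing the data, it stood at 8.88% ± 0.706 in KO (SD, n = 3) and 9.26% ± 0.554 in WT embryos (SD, n = 4). Rpl7l1, a nucleolar relative of Rpl7, stood between 4.67% and 5.85% of Rpl7. Those 3 overlapped between genotypes. Rpl36al, a relative of Rpl36a, stood at 33.9% ± 1.62 of it in KO (SD, n = 3) and 37.4% ± 1.00 in WT embryos (SD, n = 4), without overlap, although neither gene passed the test.

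The germ line and testis paralog Rpl39l was close to silent, at 0.101, 0.266 and 0.268 FPKM in KO and at 1.24, 0.549, 0.528 and 0.707 FPKM in WT embryos. All KO values were below all WT values, at a level where few fragments stand behind each. Rps4l, which resembles the X-linked Rps4x, is listed as a pseudogene and was no member. It was at 40.4, 46.8 and 39.4 FPKM in KO and at 56.9, 50.2, 63.4 and 54.1 FPKM in WT embryos, below the WT range in each KO embryo (log2 fold change -0.40, adjusted p = 0.285 from limma). Rpl3l and Rpl10l were not in the table.

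Most of the family moved together between the KO embryos, and KOAC10-8 stood apart. Without Rps18 the family summed to 92089, 85435 and 110805 FPKM in the KO embryos KOAC8-6, KOAC10-5 and KOAC10-8 and to 89172, 90055, 91401 and 89365 FPKM in the WT embryos. The WT embryos lay within an SD of 1009 FPKM, while the KO embryos spread on both sides of them with an SD of 13154 FPKM. KOAC10-8 had the highest value of all 7 embryos for 71 of the other 80 tested genes, and KOAC10-5 the lowest for 51. These counts were made for the family alone, without a share over all genes beside them. The median difference of those genes from their WT mean was 0.31 (log2) in KOAC10-8, -0.08 in KOAC10-5 and 0.04 in KOAC8-6, against -0.02 to 0.04 in the WT embryos. The family took 11.1% to 12.9% of all FPKM in the KO and 11.2% to 11.6% in the WT embryos. KOAC10-8 also had the highest total, 861448 FPKM against 770063 to 813357 FPKM in the other 6. As a share of the total the family was at 12.9% there and at 11.1% to 12.0% in the other 6. With all embryos scaled to a common sum, the KO mean of the family sum was 105% of the WT mean, against 107% as deposited. What set KOAC10-8 apart was not tested.

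The balance of positive and negative fold changes moved with both of these KO embryos. Over the 80 genes other than Rps18 the median log2 fold change was 0.08, against 0.01 for all genes tested, with 71 positive. Without KOAC10-5 the median was 0.16 with 75 positive, against 0.018 for all genes tested. Without KOAC10-8 the family median was -0.02 with 29 positive, against -0.0018 for all genes tested. The KO mean of the summed family then went from 96110 to 88762 FPKM, under the lowest WT embryo. Of the remaining KO embryos, KOAC8-6 at 92089 FPKM lay above the WT range and KOAC10-5 at 85435 FPKM below it. Rps18 kept its place without KOAC10-8, at a KO mean of 154 FPKM. Liver genes were low in KOAC10-5 and in the WT embryos KOAC10-7 and KOAC10-2, whose family medians were -0.08, -0.01 and -0.02, and their part in these values was not tested.

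**Figure D3:**
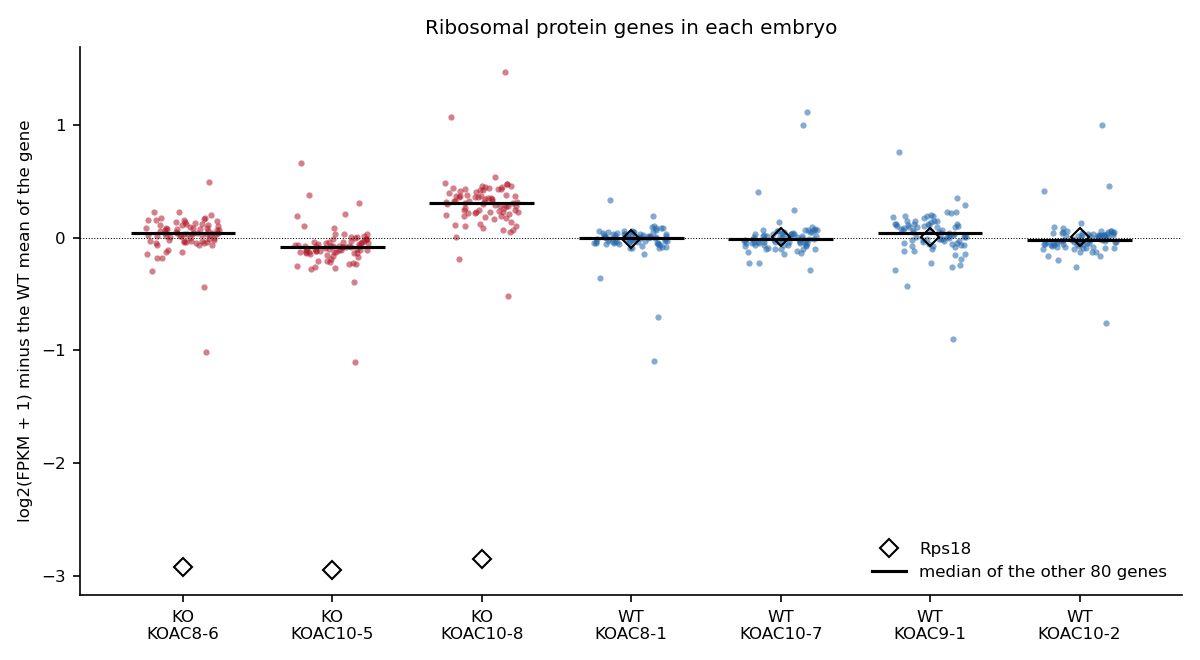
Log2(FPKM + 1) of the 81 tested genes in each embryo minus the WT mean of the gene, with 1 point for each gene other than Rps18 (KO red, WT blue), the median of those 80 genes as a bar and Rps18 as a diamond. The bar is at 0.31 in KOAC10-8 and between -0.08 and 0.04 in the other embryos, and Rps18 lies near -2.9 in the KO embryos.

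A few genes did not follow the rest of the family and stepped between levels. The ratio of the highest to the lowest embryo had a median of 1.35 over the 82 genes, exceeded 1.5 in 22 and exceeded 2 in 5. Those 5 were Rpl39l, Rps18 at 7.78, Rps2 at 5.96, Rps3a1 at 3.65 and Rpl26 at 2.69. Of the 82 genes 60 had at least 1 near-copy by the definition above, 119 copies in all, and 32 had a copy with a mean of at least 100 FPKM. Of the 35 copies at that level 29 are processed pseudogenes, 5 are listed as protein coding and 1 as a long noncoding RNA. The median WT SD on the log2 scale was 0.09 for the genes with such a copy and 0.07 for the 50 without.

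Rps2, a protein at the mRNA entry of the small subunit, was at 206, 194 and 1157 FPKM in KO and at 195, 837, 224 and 833 FPKM in WT embryos. Its copy Rps2-ps10, a transcribed processed pseudogene, was at 1634, 1540 and 1064 FPKM and at 1521, 793, 1651 and 804 FPKM in the same order. The embryos high for Rps2 were those low for its copy. Summed with all 8 of its copies, Rps2 ran from 1631 to 2222 FPKM, a ratio of 1.36 instead of 5.96. Its fold change of -0.22 has an SE of 0.82, and it turned to 0.16 with the copies summed.

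For Rpl26 the mirror was Gm15772, a processed pseudogene at chr5:3236431-3236868 (plus strand). Gm15772 was at 1813, 806 and 1190 FPKM in KO and at 1604, 1676, 942 and 1693 FPKM in WT embryos. It was at 1190 FPKM or less in the 3 embryos with Rpl26 at its high level and at 1604 FPKM or more in the other 4, and the sums ran from 1827 to 2544 FPKM, a ratio of 1.39. The coding sequence of Rpl26 (435 bases before the stop codon) differs from Gm15772 at 2 bases, 1 of which lies in coding bases 118 to 177. These are shown for that base, in capitals, with Rpl26 at chr11:68901583-68906989 (plus strand).
Rpl26: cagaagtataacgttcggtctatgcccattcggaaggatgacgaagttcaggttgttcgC
Gm15772: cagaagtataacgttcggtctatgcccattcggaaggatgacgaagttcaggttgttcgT

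Rps3a1, a protein on the platform side of the small subunit, was at 949, 837 and 473 FPKM in KO and at 415, 1458, 860 and 400 FPKM in WT embryos. Its copy Rps3a2 was at 482, 441 and 997 FPKM and at 815, 0, 427 and 821 FPKM. In the WT embryo KOAC10-7 Rps3a2 was listed at 0 and Rps3a1 was at its highest. Rps3a3 has 49.6% of its stretches in Rps3a1, just under the limit for a copy, and followed Rps3a2, with 353, 299 and 747 FPKM in KO and 631, 0.705, 292 and 610 FPKM in WT embryos. Rps3a1 with its copies had a ratio of highest to lowest embryo of 1.20, and with Rps3a2 and Rps3a3 of 1.52. Coding bases 609 to 668 hold the most differences and are shown with the base of each copy that departs from Rps3a1 in capitals. Rps3a1 lies at chr3:86137940-86142702 (minus strand), Rps3a2 at chr14:88123017-88123808 (minus strand) and Rps3a3 at chr13:108670603-108671397 (plus strand).
Rps3a1: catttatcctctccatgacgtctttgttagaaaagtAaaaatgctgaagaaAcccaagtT
Rps3a2: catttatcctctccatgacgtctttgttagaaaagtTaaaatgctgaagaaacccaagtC
Rps3a3: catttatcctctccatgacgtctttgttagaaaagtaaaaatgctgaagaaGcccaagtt

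Rpl3, a protein close to the peptidyl transferase centre, showed the same exchange. Rpl3 was at 913, 1099 and 739 FPKM in KO and at 876, 1121, 628 and 829 FPKM in WT embryos. Rpl3-ps1, which differs from it at 2 of 1209 coding bases, was at 314, 0.212 and 625 FPKM in KO and at 295, 0.475, 523 and 273 FPKM in WT embryos. The embryos with almost no Rpl3-ps1, 1 of each genotype, had the highest Rpl3. Summed with its copies the ratio of highest to lowest embryo went from 1.79 to 1.24.

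Summing did not narrow every gene. For Rps26, Rpl21 and Rpl29 the ratio rose, from 1.58 to 1.92, from 1.68 to 1.92 and from 1.57 to 1.84. Rps26-ps1, which differs from Rps26 at 2 of 345 coding bases, was at 1033, 562 and 858 FPKM in KO and at 78.1, 65.6, 1069 and 58.8 FPKM in WT embryos. It was high in all KO embryos and in 1 WT embryo, KOAC9-1. Gm8210, the copy of Rpl29, was at 3.54 FPKM in the WT embryo KOAC8-1 and between 405 and 622 FPKM in the other 6. The copies of Rpl21 stepped between themselves, with Gm13370 listed at 0 in the WT embryo KOAC10-2 and between 1138 and 1911 FPKM in the others. Gm10163 was at 656 FPKM in that embryo and at 11.3 FPKM or less in the others.

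**Figure D4:**
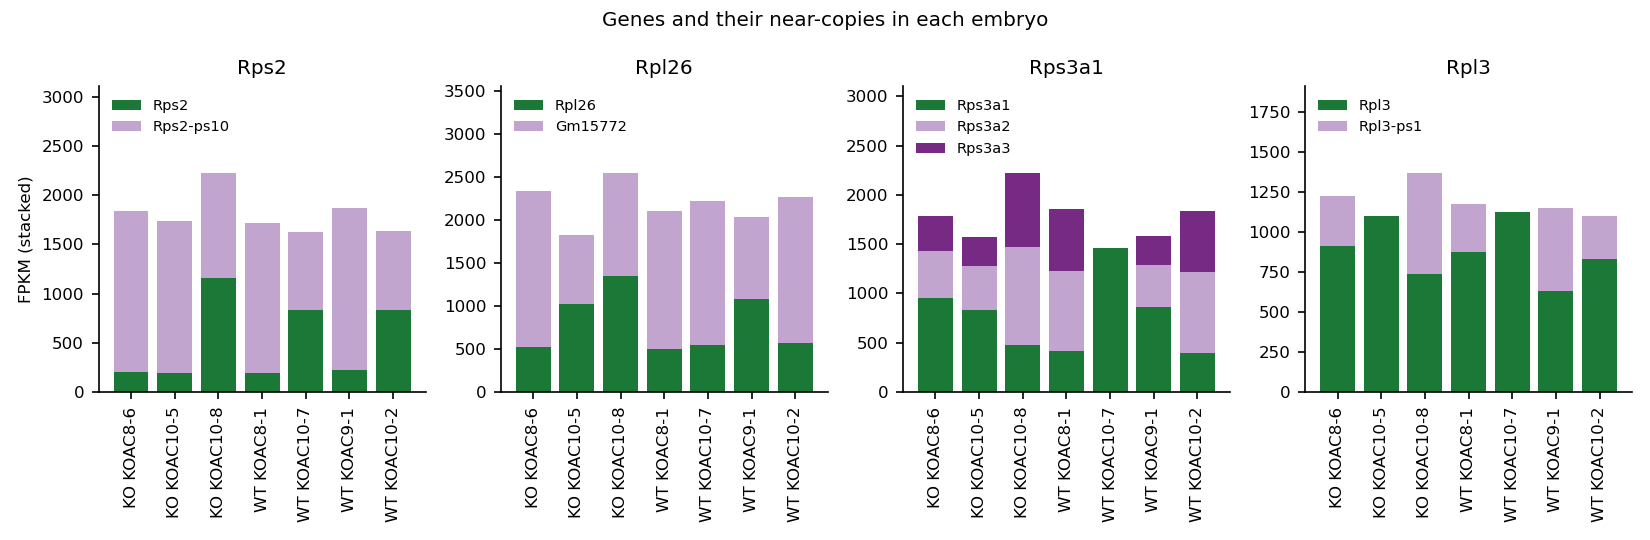
FPKM of Rps2, Rpl26, Rps3a1 and Rpl3 (green) with the near-copies named in each panel (purple), stacked for each embryo, KO first. The parts change from embryo to embryo. Rps3a2 and Rps3a3 stand at 0 and 0.705 FPKM in the WT embryo KOAC10-7, where the green bar of Rps3a1 reaches 1458 FPKM.

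Over the 32 genes with a copy at 100 FPKM or more, summing lowered the ratio of highest to lowest embryo in 18 and raised it in 14. It moved by more than 1.5 times in 4, Rps18, Rps2, Rps3a1 and Rpl26, and each of those 4 was lowered. Alone these 4 exceeded 2, and summed no gene did. In Rps18 the steps followed genotype, and in the other 3 embryos of both genotypes were found at each level.

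**Figure D5:**
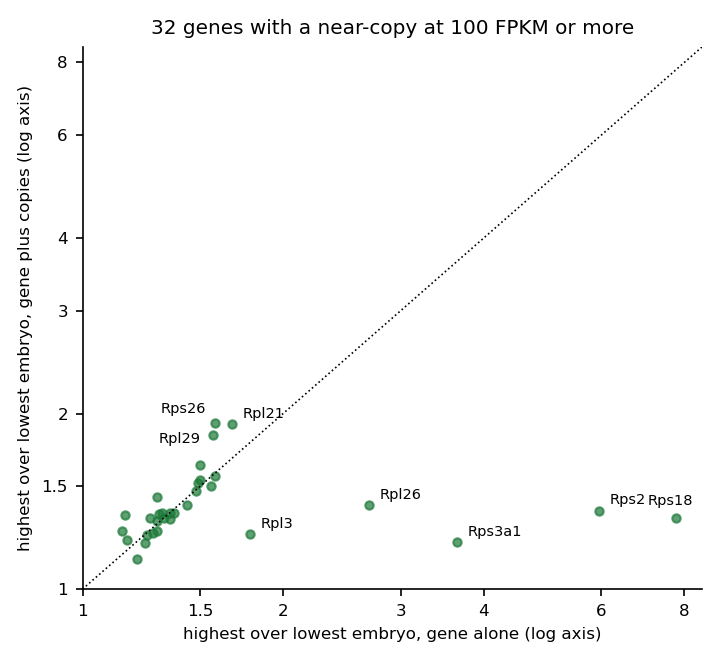
Ratio of the highest to the lowest of the 7 embryos for the 32 genes with a near-copy at 100 FPKM or more, alone (horizontal, log axis) and summed with the copies (vertical, log axis), with equality as a dotted line. Rps18, Rps2, Rps3a1 and Rpl26 lie far below the line, and no gene exceeds 1.92 after summing.

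The start of these genes was read from RefSeq promoter sequences (GRCm38.p6, 250 bases before to 50 after the start), which held 62 of the 82 genes. A run of at least 7 C or T letters that begins with C, on the strand of the gene and within 20 bases of the start, was present in 35 of the 62 (56.5%) and in 21.4% of all 27025 genes with a promoter there. The motif CCGGAAG, read on both strands over the 300 bases and bound by ETS factors, was present in 41.9% of the 62 and 9.93% of all genes. TATAAA was present in 11.3% and 15.7%, and CACGTG, the E-box bound by MYC, in 9.68% and 8.09%. The motifs may overlap one another, and a match is a run of letters, not a site shown to be used. The 30 bases around the start, 15 on each side, are shown for Rps18 and for 4 genes of both subunits that did not pass the test, with the longest such run in capitals.
Rps18, chr17:33955651-33955680 (minus strand): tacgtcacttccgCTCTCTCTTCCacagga
Rpl35, chr2:39005117-39005146 (minus strand): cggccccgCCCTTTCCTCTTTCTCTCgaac
Rps6, chr4:86857353-86857382 (minus strand): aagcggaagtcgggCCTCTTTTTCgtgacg
Rplp2, chr7:141447636-141447665 (plus strand): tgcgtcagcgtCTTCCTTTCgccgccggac
Rps15a, chr7:118116133-118116162 (minus strand): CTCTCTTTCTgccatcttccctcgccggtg
Rps18 has a run of 11 pyrimidines there, between the 9 of Rplp2 and the 18 of Rpl35. Each gene shown holds a run of at least 7, which 35 of the 62 do. The run of Rps15a begins at the first base shown and ends before the annotated start, so the window may cut it short.

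Genes that make, regulate or watch over ribosomes were described from lists, and no gene of them had an adjusted p under 0.05. Ribosome biogenesis factors, which process rRNA and assemble subunits in the nucleolus, showed 43 of 49 positive log2 fold changes, with a median of 0.10 and none had an unadjusted p under 0.05. Their sum was 4071, 3531 and 4611 FPKM in KO and 3773, 3672, 3796 and 3602 FPKM in WT embryos. KOAC10-8 was highest and KOAC10-5 lowest, as for the ribosomal proteins. Each of the other lists below also had its highest sum in KOAC10-8, while the lowest embryo varied. For the mitochondrial ribosomal proteins it was 4721 FPKM there, 4097 and 4130 FPKM in the other KO embryos and 4266 to 4402.5 FPKM in WT embryos. Translation factors and other genes with the terminal oligopyrimidine tract had a median of 0.12 over 23 genes. Of these 1 was higher at an unadjusted p under 0.05, Nap1l1, a histone chaperone, or 4.35% beside 5.27% of all genes. Nap1l1 was at 583, 550 and 751 FPKM in KO and at 504, 525, 495 and 495 FPKM in WT embryos, which do not overlap and differ by 0.30 on the log2 scale (adjusted p = 0.388 from limma).

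Regulators were mixed. Of 17 genes of mTOR and MYC control 2 were higher and 1 lower at an unadjusted p under 0.05, or 11.8% and 5.88% beside 5.27% and 6.19% of all genes, with a list median of 0.00. Mycn, the MYC family member of embryonic neural tissue, was at 28.2, 27.3 and 39.1 FPKM in KO and at 22.3, 21.9, 21.9 and 26.6 FPKM in WT embryos (log2 fold change 0.42, adjusted p = 0.355 from limma). KOAC10-8 had the highest Mycn as well. Mxi1 and Mxd4, which compete with MYC for its partner MAX, had log2 fold changes of 0.15 and -0.22 with adjusted p of 0.360 and 0.405 from limma. Of the 5 markers of neural progenitors 4 were higher in the KO embryos at an unadjusted p under 0.05, where 5.27% of all genes were, and their part in the Mycn value was not tested.

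The p53 response, which free ribosomal proteins can set off through Mdm2, had a median of 0.15 over 11 genes. Mdm4, a partner of Mdm2, was its gene with an unadjusted p under 0.05, or 9.09% higher beside 5.27% of all genes. It was at 52.5 ± 2.31 FPKM in KO (SD, n = 3) and 45.5 ± 3.14 FPKM in WT embryos (SD, n = 4) (adjusted p = 0.354 from limma). Of 9 genes of ribosome recycling and quality control 1 was higher at an unadjusted p under 0.05, or 11.1% beside 5.27% of all genes, and none was lower. It was Hbs1l, which frees stalled ribosomes with pelota, higher by 0.13 on the log2 scale (adjusted p = 0.421 from limma). The proteins of the mitochondrial ribosome, a separate particle, had a median of 0.00 over 78 genes, with 39 positive and 39 negative. Of these Mrpl38 was higher and Mrps24, Mrpl17 and Mrps16 were lower at an unadjusted p under 0.05, with log2 fold changes of 0.26, -0.13, -0.14 and -0.15. That is 1.28% higher and 3.85% lower of the 78, beside 5.27% and 6.19% of all genes.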

How the data were processed

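Expression of 25461 genes had been measured by RNA-seq (TruSeq RNA v2 libraries of total RNA) in 3 KO and 4 WT embryos. The authors deposited FPKM per gene and embryo; the submitters' notes name Salmon, DESeq2, MultiQC and the build GRCm38, without roles, and versions are not given in the sources used here. The authors' mean of normalized counts per gene, a signal column of the deposited table, served only to read relative depth from the steps between low values. Of those low values 72.3% to 85.9% per embryo lay within 0.1 of a whole number of reads, too few to recover counts, so no counting interval is given. The deposited fold changes and p-values were not used.

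Genotypes were taken from the labels. FPKM as deposited were fitted as log2(FPKM + 1) with limma 3.58.1 in R 4.3.3 (lmFit, eBayes with a trend, no covariate) on the 16095 genes that averaged 1 FPKM or more, with Benjamini-Hochberg adjustment over all of them and a threshold of 0.05. The fit was also run on simulated data with 200 changed genes, drawn independently of each other. That run does not cover genes that move together. Single values were also compared by an exact permutation test, two-sided, over all 35 splits. Near-copies were found from 50-base stretches shared between GENCODE M21 transcripts (GRCm38), with 50% of the copy's stretches as the limit, and coding sequences were aligned with Biopython 1.88. Of the gene identifiers 14 were not in that annotation.

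Members, lists and tests were chosen with earlier results of these data known. Genes named are Slmap, Rps18, genes past the adjusted test, the 5 highest and 5 lowest by fold change and by level, genes whose KO values lie outside the WT range, paralog pairs, list genes with an unadjusted p under 0.05, near-copies of Rps18 and the 5 genes most like and most unlike it. One gene that this rule names is not reported here. Rplp0, Rplp2, Rpl11, Rpl38, Rps6, Rps19, Rpsa and Rps27a, and Rps3a1, Rpl3, Rpl29, Rpl21, Rpl35 and Rps15a with the copies of members other than Rps18, were chosen after their values were seen. The alternatives were another pseudocount, other filters, 3 other scalings, embryo series as a block, robust eBayes, copies summed with their gene, and each embryo left out.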

Additional observations from a re-analysis of the deposited data

Results flagged for a closer look

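In 12 of the 82 genes 1 of the 4 WT embryos was set apart from the rest, by its gap to the nearest of them against the range of the 4. Chance gives about 1 in 20, or 4.1 of 82, and the genes are not independent of each other. The embryo was KOAC9-1, the single one of its series in the labels, in 8 of the 12. In KOAC9-1 the highest WT value was that of Rpl13 (gap over range 0.940, 1424 FPKM against 1187 to 1202 FPKM), Rpl23 (0.989, 798 against 713 to 714 FPKM), Rpl26 (0.879, 1089 against 503 to 573 FPKM), Rpl4 (0.886, 1071 against 928 to 944 FPKM), Rpl6 (0.876, 1103 against 881 to 908 FPKM), Rpl7a (0.864, 1328 against 1245 to 1257 FPKM) and Rps7 (0.958, 616 against 468 to 474 FPKM). Rps27l was lowest there (0.848, 203 against 239 to 246 FPKM).

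In other WT embryos, Rpl32 was highest in KOAC8-1 (0.897) and Rps18 lowest there (0.833), by 1169 against 1182 to 1184 FPKM, which is small beside the KO level of 157 FPKM. Rpl37a was lowest in KOAC10-7 (0.948) and Rps25 in KOAC10-2 (0.915). Summed with their copies, the same measure was 0.172 for Rpl26, 0.135 for Rps7, 0.698 for Rpl23, 0.336 for Rpl37a and 0.410 for Rps18, and 0.817 for Rpl13, 0.882 for Rpl6 and 0.935 for Rps25. The cause was not tested.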

How the results depend on the processing

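Rps18 stayed past the adjusted test in 15 of 16 alternatives (limma), with log2 fold changes of -2.93 to -2.88 on leaving out 1 embryo. With near-copies summed it reversed to 0.22 (adjusted p = 0.402), and the count of ribosomal protein genes with an adjusted p under 0.05 went from 1 to 0. Scaling on the family without Rps18 gave 38 positive genes of 80 instead of 71, a balance set by centring on these same genes. Leaving out 1 embryo gave 29 to 75 positive genes (29 without the KO embryo KOAC10-8) and 1 to 11 genes of the family at an unadjusted p under 0.05 (11 without KOAC10-5, 4 without KOAC10-8, 1 without KOAC10-7, against 2). Over all genes tested the same counts were 2630 of 16076, 1255 of 16088 and 1528 of 16092, against 1846 of 16095. With copies summed Rps2 turned to 0.16, Rps26 to 0.41, Rpl27 to 0.032 and Rps27 to 0.078, and Rps2 turned to 0.18, 0.22, 0.12 and 0.11 without KOAC8-6, KOAC10-5, KOAC10-7 and KOAC10-2. The cause was not tested. The embryo series as a block, with KOAC8 and KOAC10 in both genotypes and KOAC9 in WT only, left Rps18 as the single family gene past the adjusted test. It moved the unadjusted call from Rpl18 to Rpl26 (log2 fold change 0.73, adjusted p = 0.569 from limma). As KOAC9 holds a single embryo, its fold changes equal those on leaving out KOAC9-1, so the block gives no separate estimate. The labels do not say what an embryo series is. Counting Rps3a3 as a copy was chosen after seeing the data. FPKM without counts leave the counting error of each value unknown, and 3 against 4 embryos limit what the test can call.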

Other observations

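The most abundant copy stood above its gene in 19 of the 60 genes with a copy, and in all 7 embryos in 14 of them. Rpl5 was at 137 FPKM in WT embryos, while its transcribed pseudogene Gm15500 was at 1069 ± 48.6 FPKM (SD, n = 4), and over all embryos the copy was 8.35 times as high. Gm10275 was 7.77 times as high as Rpl12, and Rps27rt, a copy listed as protein coding, 4.51 times as high as Rps27. Gm28911 and Gm14303, copies of Rpl8 and Rps29, reached 2937 ± 233 and 2896 ± 333 FPKM in WT embryos (SD, n = 4).

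The low end of the family changed when copies were added. Alone, 12 genes averaged under 500 FPKM over the 7 embryos. With near-copies added there were 5, which were Rpl36al, Rpl22l1, Rps27l, Rpl7l1 and Rpl39l, at 349, 342, 233, 91.6 and 0.523 FPKM. All 5 are paralogs of another member, and none of the canonical genes was left among them. Sums over entries of different length only approximate reads, and how the deposited values divide reads among copies was not tested.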
